A study of Mus musculus with 23 samples.

Results

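The comparison set 3 medulloblastoma allografts that were resistant to NVP-LDE225 and had been given 160 mg/kg of it against 3 allografts that were sensitive and were collected 48 h after 40 mg/kg. NVP-LDE225 is an antagonist of Smoothened, the membrane protein that carries the Hedgehog signal into the cell. Members were chosen by the label that describes each array, which gave 6 of the series' 23 arrays, and all 45037 probe sets other than controls were taken. All tumours grew subcutaneously in the right flank of Harlan nu/nu nude mice, hosts that lack a working thymus. They were started with cells dissociated from medulloblastomas of Ptch+/-HIC+/- mice, which carry heterozygous alleles of the Hedgehog receptor gene and of a second gene the labels give as HIC, and treatment began about 10 days after implantation. Every group carries that genotype. Resistant tumours at 40 mg/kg (3 arrays) and vehicle-treated sensitive tumours with no stated time (3 arrays) served as further points of reference. No time since dosing is given for either resistant group, so tumour status, dose and time on drug differ together between the 160 mg/kg resistant and the 48 h tumours and cannot be told apart. Nor do the labels say whether replicates were separate animals or separate resistant lines, and the p-values below cover only how far the arrays of a group lay apart.

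In the Hedgehog pathway a secreted ligand binds the receptor Ptch1, which otherwise holds Smoothened inactive. Active Smoothened releases the Gli transcription factors, which switch on their own gene Gli1, the feedback genes Ptch1 and Hhip, and growth genes such as Ccnd1 and Mycn. The pathway drives division of granule neuron progenitors in the developing cerebellum, the cells from which this class of medulloblastoma arises, and its loss lets such cells leave the cell cycle and mature into neurons. Host cells such as macrophages, fibroblasts and vessels grow into an allograft and contribute RNA to its arrays.

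Signal is the MAS5 intensity as deposited, and differences are between group means of log2(signal + 16), written as resistant 160 mg/kg minus the other group. The offset understates the change of dim genes. Calls were made where limma's p, adjusted across the 35069 probe sets tested, was below 0.05, and each of 14980 genes was read from its probe set with the highest mean signal. Granule neuron progenitor markers were present in both groups: the lineage factor Atoh1 had 3953, 3816 and 3380 in the resistant 160 mg/kg arrays, against 1271, 1834 and 1478 in the sensitive 48 h arrays, and Zic1 had 4898 to 5343 and 7157 to 8747. Pax6 and Zic2, which are also listed for this lineage, were dim, between 69.5 and 173.4 in the resistant 160 mg/kg arrays and between 37.6 and 130.6 in the 48 h arrays. Median signal was 37.6 to 43.0 in the resistant 160 mg/kg arrays and 45.9 to 46.7 in the 48 h arrays, and the actin probe sets at the transcript's 3' end exceeded those at its 5' end by a log2 difference of 1.07 to 1.38 in the resistant 160 mg/kg arrays and 0.84 to 0.96 in the 48 h arrays. Neither of these ranges overlapped between the groups. The same difference for the Gapdh probe sets did overlap, at -0.11 to 0.22 in the resistant 160 mg/kg arrays and -0.18 to 0.02 in the 48 h arrays. The part of RNA quality in the results was not tested.

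The resistant 160 mg/kg and sensitive 48 h tumours differed across much of the transcriptome. Of 35069 probe sets 10773 were called (30.7%), 5080 higher (14.5%) and 5693 lower (16.2%) in the resistant tumours. Of 14980 genes 5695 (38%) were called, 2627 higher (17.5%) and 3068 lower (20.5%), and these shares are the background for every count below. The median over all genes was -0.06. Differences beyond 2 on the log2 scale were called for 212 genes higher and 253 lower. Pearson correlations of log2 signal across probe sets were 0.859 to 0.925 between arrays of the 2 groups, 0.945 to 0.962 among the resistant 160 mg/kg arrays and 0.961 to 0.969 among the 48 h arrays. Probe sets are not independent replicates. In whole tumours, fewer cells of a type and less RNA per cell cannot be told apart. In the plot of gene lists by share called, proliferation and biosynthesis genes fill the higher side, and macrophage, lysosome, fibroblast, interferon and neuronal genes fill the lower side.

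**Figure D1:**
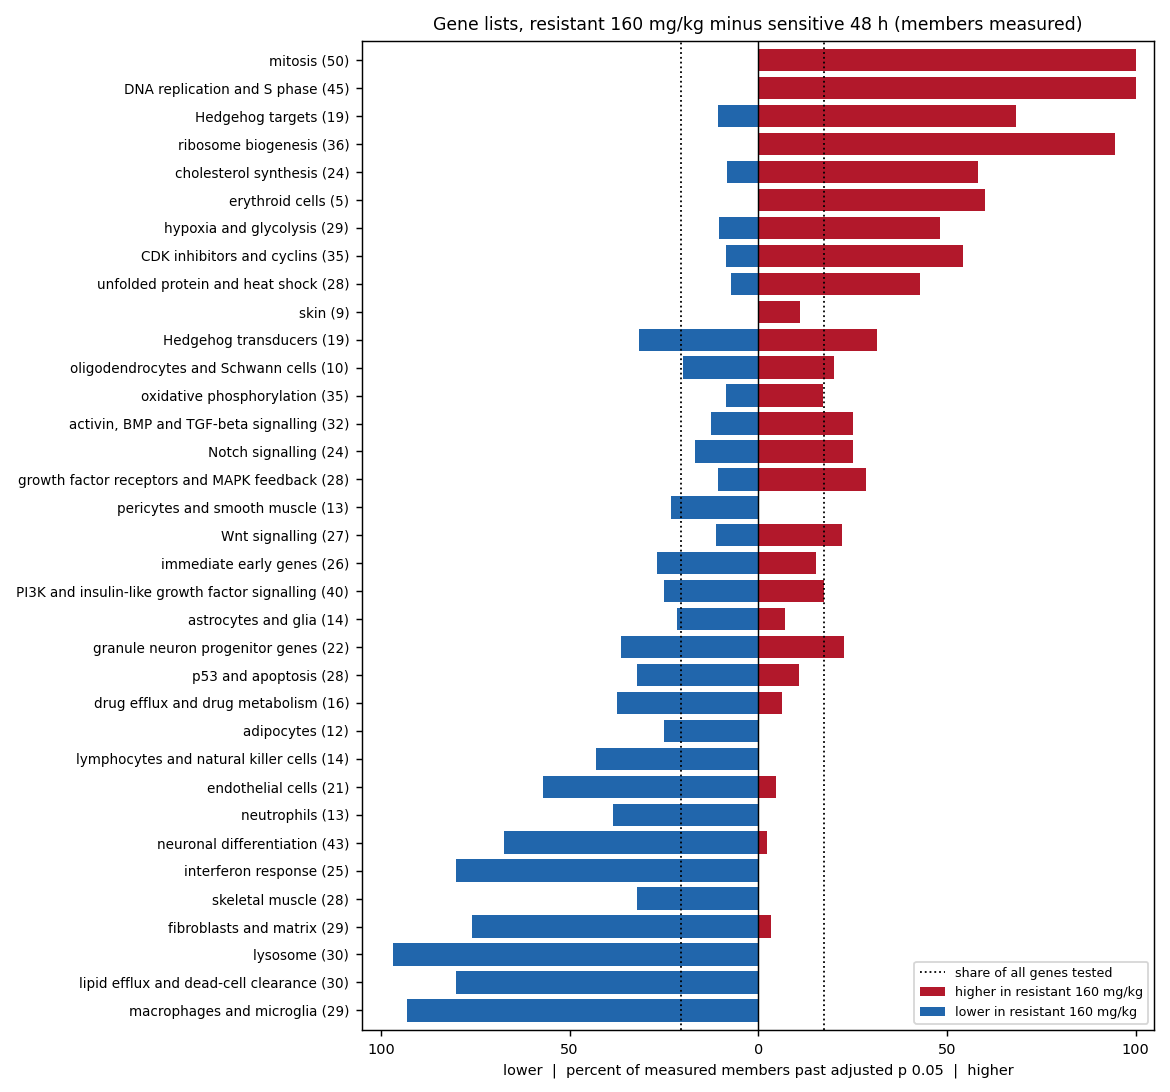
Share of the measured members of each of 35 gene lists that passed adjusted p 0.05 in the resistant 160 mg/kg minus sensitive 48 h comparison, with higher members to the right, lower members to the left and the number of measured members in parentheses. Dotted lines mark the shares of all genes tested, 17.5% higher and 20.5% lower; all 50 mitosis genes lie on the higher side and 27 of 29 macrophage genes on the lower side.

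Hedgehog target genes stood far higher in the resistant 160 mg/kg tumours than in the sensitive 48 h tumours, near the signal of vehicle tumours. Of 19 measured targets 13 rose, 2 fell and 4 did not pass, with a median log2 difference of 1.29. Gli1, the most direct transcriptional readout of the pathway, had signals of 703, 602 and 594 in the resistant 160 mg/kg arrays, 1259, 1269 and 966 in the resistant 40 mg/kg arrays, 4.2, 14.1 and 18.6 in the 48 h arrays and 631, 696 and 710.2 in the vehicle arrays. Every resistant array lay above every 48 h array by a wide margin. Gli1 did not exceed the 40th percentile of any 48 h array, and taken against that percentile the resistant 160 mg/kg signal was at least 23-fold higher (log2 difference 4.55 ± 0.31 SE, adjusted p = 1e-10).

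Gli2, the main Gli activator, had 1084, 1213 and 1033 in the resistant 160 mg/kg arrays, against 125, 100 and 108 in the 48 h arrays (3.15, adjusted p = 5.4e-14). Ptch1, receptor and feedback target, had 2838, 2092 and 1656, against 253, 302 and 217 (2.99, adjusted p = 2.7e-13), and 2 of its 3 probe sets were called. Both genes showed the same pattern as Gli1, with no overlap between the groups. Cyclin D1, encoded by Ccnd1 and needed for entry into S phase, had 4410.3, 3958 and 3070.1, against 347, 280 and 255 (3.62, adjusted p = 3.3e-15). The growth-promoting factor Mycn had 1122, 1165 and 1315, against 386, 469.6 and 343 (1.56, adjusted p = 1.1e-09), with 2 of 3 probe sets called. Hhip, which binds and sequesters ligand, was dimmer and more variable, with 170.3, 202 and 70.8 in the resistant 160 mg/kg arrays and 1.9, 14.4 and 23.4 in the 48 h arrays. It was not above the 40th percentile of any 48 h array and was at least 4.9-fold higher (log2 difference 2.45, adjusted p = 6.5e-06). The co-receptor gene Boc rose by 2.78 (adjusted p = 6.8e-14), with 966, 1068 and 862 against 101, 163 and 120.3. Among other members, the activin inhibitor Fst rose by 2.99 and Igf2, a growth factor, by 0.39 (adjusted p = 0.011). The Igf2 call was lost with replicate as a block (adjusted p = 0.072), without resistant 160 mg/kg replicate 2 (0.075) and without sensitive 48 h replicate 1 (0.062).

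The 2 targets that fell were Ccnd2 and Gli3. Cyclin D2 had 113, 248 and 720.2 in the resistant 160 mg/kg arrays, against 1034, 1002 and 982 in the 48 h arrays (-1.80, adjusted p = 0.00046). The 3 resistant arrays spread widely while the 48 h arrays lay close together. Gli3, which acts mainly as a repressor when the pathway is off, had 10.1, 32.7 and 34.4, against 89.8, 68.7 and 64.6 (-1.17, adjusted p = 0.0089), with 1 of 2 probe sets called. Without resistant 160 mg/kg replicate 1 its adjusted p was 0.077, and with an offset of 1 it was 0.06. The Wnt inhibitor Sfrp1 did not pass (-0.28, adjusted p = 0.49), with 492, 969.6 and 1359.6 in the resistant 160 mg/kg arrays and 991, 1169.7 and 1013 in the 48 h arrays, which overlap.

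Transcripts of the proteins that carry the signal changed by smaller amounts than those of its targets. Of 19 transducers 6 rose and 6 fell, against 17.5% and 20.5% of all genes. The median was 0.18, with a range from -1.54 to 0.71. Smo, the target of the drug, had 414, 507 and 443 in the resistant 160 mg/kg arrays, against 323, 305 and 292 in the 48 h arrays (0.54, adjusted p = 0.00095), read by a probe set with shared probes. Sufu, which holds Gli proteins in check, had 503, 349.6 and 344, against 275, 270.1 and 259 (0.53, adjusted p = 0.0045). Without resistant 160 mg/kg replicate 1 the adjusted p for Sufu was 0.055. The phosphodiesterase Pde4d fell by 1.54 (adjusted p = 5.2e-06), Arrb2, an arrestin, by 0.91 (adjusted p = 1.6e-05) and the protein kinase A subunit Prkacb by 0.66 (adjusted p = 7.6e-06). Casein kinase gene Csnk1a1 rose by 0.71 (adjusted p = 2.4e-06). The count of transducers that rose was 3 without resistant 160 mg/kg replicate 2.

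**Figure D2:**
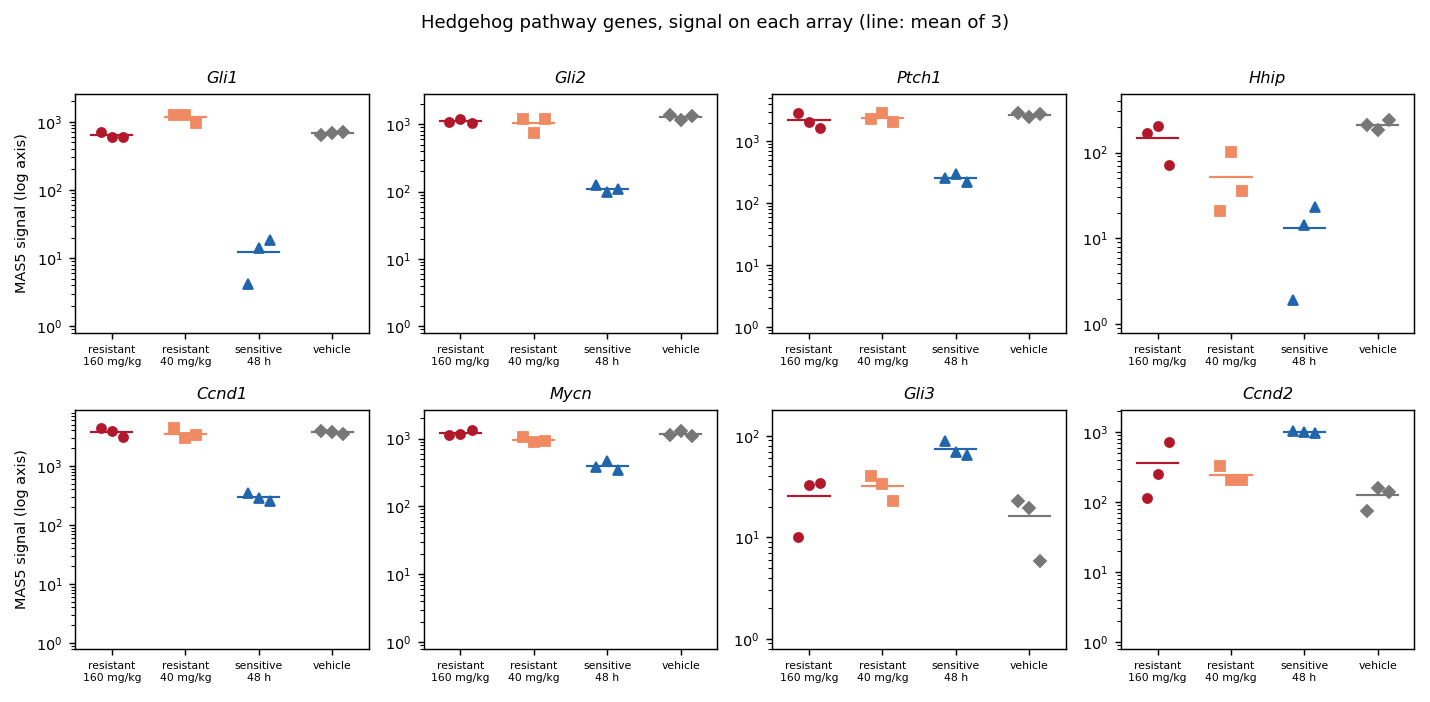
MAS5 signal on a log axis for 8 Hedgehog pathway genes on each array of the resistant 160 mg/kg, resistant 40 mg/kg, sensitive 48 h and vehicle groups, with a line at the mean of the 3 arrays. Gli1, Gli2, Ptch1, Hhip, Ccnd1 and Mycn are higher on every resistant 160 mg/kg array than on every 48 h array, and Gli3 and Ccnd2 are lower.

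Genes of the cell cycle showed the most complete change. All 50 measured mitosis genes and all 45 measured DNA replication and S phase genes rose, with median differences of 2.27 and 1.74, and in each of these genes the groups did not overlap, against 21.9% of all genes in that direction. Mki67, the usual marker of cycling cells, had 5002, 4344 and 3186 in the resistant 160 mg/kg arrays, 2455, 2858 and 3900.2 in the resistant 40 mg/kg arrays, 664, 413 and 640.5 in the 48 h arrays and 4859.9, 4735 and 4837 in the vehicle arrays (2.84, adjusted p = 9e-12). Cdc20, an activator of the anaphase-promoting complex, had 3634, 3097 and 2382 in the resistant 160 mg/kg arrays, against 414, 302 and 362 in the 48 h arrays (3.01, adjusted p = 4.4e-13). Chromosome condensation gene Smc2 rose by 2.73 and topoisomerase gene Top2a by 2.91. Among replication genes Uhrf1, which maintains DNA methylation, had 1163, 1116 and 711, against 81.1, 55.4 and 74 (3.53, adjusted p = 6e-14). The replicative helicase genes Mcm2, Mcm5 and Mcm7 rose by 2.99, 2.79 and 1.81. Within the resistant 160 mg/kg group, replicate 3 was the lowest: its summed signal of mitosis genes was 36076, against 60062 and 53346 in replicates 1 and 2. In the 48 h arrays the sums were 8479 to 11606. The mitosis count stayed at 50 under every alternative run, and the S phase count was between 43 and 45.

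Regulators of the cycle moved in the same direction for the most part: of 35 CDK, cyclin, E2F and Myc family genes 19 rose and 3 fell. This list shares 4 genes with the Hedgehog targets. E2f1, which activates S phase genes, had 406, 395 and 304 in the resistant 160 mg/kg arrays, against 85.2, 78.9 and 93.1 in the 48 h arrays (1.91, adjusted p = 6.7e-09), and Mycl had 840.1, 691 and 610, against 166, 276 and 128 (1.87). The CDK inhibitor genes Cdkn1a, Cdkn1b and Cdkn2a did not pass, at 0.09, -0.37 and 0.08. Cyclin D3 did not pass either (0.25, adjusted p = 0.29).

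Promoters of the genes that rose together are shown because short motifs are known to mark cell cycle genes. The E2F site is bound by E2F transcription factors at S phase genes, and the cell cycle genes homology region (CHR) is bound by complexes that act on genes of mitosis. Windows from 250 bases before to 50 bases after each start site were taken from RefSeq (GRCm38.p6) and searched on both strands, and a gene with several start sites counted if any window matched. A window was found for 37 of 45 S phase genes, 42 of 50 mitosis genes and 11982 of the 14980 tested genes. The E2F letters TTTGGCGC, TTTCGCGC or TTTCCCGC, none of which contains another, were in 15 of the 37 S phase windows (40.5%), against 441 of the 11982 windows (3.7%). The CHR letters TTTGAA were in 31 of the 42 mitosis windows (73.8%), against 1759 of the 11982 (14.7%). Neuronal differentiation genes, most of which fell, held E2F letters in 0 of 32 windows and CHR letters in 6 of 32 (18.8%). Ribosome biogenesis genes, of which 34 of 36 rose, held E2F letters in 3 of 31 windows (9.7%) and CHR letters in 3 of 31 (9.7%). CHR letters were also in 4 of the 10 windows found for Hedgehog targets (40%) and in 6 of the 37 S phase windows (16.2%), and E2F letters in 3 of the 42 mitosis windows (7.1%). The letters CCAAT, also searched, were in 32 of the 42 mitosis windows (76.2%), 23 of the 37 S phase windows (62.2%), 15 of the 32 neuronal windows (46.9%) and 5044 of the 11982 (42.1%). Ribosome biogenesis genes held CCAAT in 10 of 31 windows (32.3%). The Gli letters GACCACCCA were in 0 of the 10 windows found for Hedgehog targets and in 28 of the 11982 (0.234%). Such matches describe letters and are not evidence of binding. Stretches upstream of the start site of named members, read on the gene's strand with the motif in capitals, were as follows.
Uhrf1 (E2F, chr17:56304108-56304155, plus strand): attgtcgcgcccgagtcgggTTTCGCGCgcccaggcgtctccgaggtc
Mcm5 (E2F, chr8:75109336-75109387, plus strand): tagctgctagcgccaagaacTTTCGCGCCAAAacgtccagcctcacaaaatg
Mcm7 (E2F, chr5:138172021-138172068, minus strand): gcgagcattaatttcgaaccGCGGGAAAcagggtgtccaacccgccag
Cdc20 (CHR, chr4:118437344-118437381, minus strand): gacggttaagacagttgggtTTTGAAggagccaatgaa
Smc2 (CHR, chr4:52439056-52439101, plus strand): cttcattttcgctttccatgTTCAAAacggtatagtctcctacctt
Mki67 (CHR, chr7:135716452-135716515, minus strand): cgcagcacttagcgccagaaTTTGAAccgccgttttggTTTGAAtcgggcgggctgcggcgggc
In Mcm5 the capitals hold 2 overlapping E2F matches on opposite strands, in Mcm7 and Smc2 the match is on the opposite strand, and Mki67 holds 2 CHR matches. These members rose by 3.53 (Uhrf1), 2.79 (Mcm5), 1.81 (Mcm7), 3.01 (Cdc20), 2.73 (Smc2) and 2.84 (Mki67).

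Biosynthetic genes were higher as well. Of 36 ribosome biogenesis genes 34 rose and 0 fell (median 0.85). Nop56, a nucleolar protein of snoRNA complexes, had 1247, 1145 and 1107 in the resistant 160 mg/kg arrays, against 381, 414 and 318 in the 48 h arrays (1.62, adjusted p = 3.8e-11), and Odc1, which makes polyamines, had 2364, 2102 and 2017, against 630.4, 752 and 526 (1.75). Dkc1 and the RNA polymerase subunit gene Polr1c rose by 1.54 and 1.19. Of 24 cholesterol synthesis genes 14 rose and 2 fell (median 0.72). Idi1, an isomerase of the isoprenoid pathway, had 1362, 979 and 587, against 73.7, 99.3 and 91.6 (3.18, adjusted p = 4.5e-10). Srebf1, a master regulator of lipid synthesis, Insig1, its feedback partner, and the sterol demethylase gene Cyp51 rose by 2.18, 2.02 and 1.88.

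Glycolysis and hypoxia genes gave 14 higher and 3 lower of 29 (median 0.44). Hexokinase 2, encoded by Hk2, had 1653, 945 and 633 in the resistant 160 mg/kg arrays, against 217, 204 and 153 in the 48 h arrays (2.30, adjusted p = 1.5e-08). Lactate dehydrogenase A, from Ldha, had 3801, 4658 and 3511, against 1688, 1526 and 1681 (1.27), and the pyruvate kinase gene Pkm rose by 0.90, while the muscle-type phosphofructokinase gene Pfkm fell by 1.07. The count of higher members was 9 without resistant 160 mg/kg replicate 2. Unfolded protein and heat shock genes gave 12 higher and 2 lower of 28 (0 lower without resistant 160 mg/kg replicate 1 and 1 without sensitive 48 h replicate 1 or 4), with Hsph1, a chaperone, at 1.26, Manf, an endoplasmic reticulum stress protein, at 1.02, Atf4, a stress transcription factor, at 0.58 and the co-chaperone gene Dnajc3 at 0.83. Of 35 oxidative phosphorylation genes 6 were higher, near the background share on that side, and 3 were lower, a smaller share than the 20.5% of all genes. Cycs, Ndufv2 and Atp5a1 rose by 0.90, 0.53 and 0.50, and Sdhc fell by 0.48, and 6 were lower under quantile normalization.

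Neuronal genes were much lower in the resistant 160 mg/kg tumours. Of 43 neuronal differentiation genes 29 fell and 1 rose (median -1.10). Slc17a6, the vesicular glutamate transporter of excitatory neurons, had signals of 1.1, 3.9 and 29.3 in the resistant 160 mg/kg arrays, 15.7, 2.3 and 8.4 in the resistant 40 mg/kg arrays, 1549, 1416 and 1434 in the 48 h arrays and 6, 5.2 and 8.2 in the vehicle arrays (-5.90, adjusted p = 2e-13). The 48 h arrays stood alone in its expression. Stmn2, a microtubule regulator of growing neurites, had 14.2, 31.4 and 49 in the resistant 160 mg/kg arrays, against 1441, 1439.6 and 1468 in the 48 h arrays (-5.02). Chgb, a secretory granule protein, had 59.8, 216 and 1012, against 7149.8, 7391 and 7166 (-4.79), so the resistant 160 mg/kg arrays differed among themselves by more than those of most named genes. Dpysl3, which acts in axon guidance, fell by 2.20. The exception was Grin2c, an NMDA receptor subunit gene of granule cells, with 957, 854 and 792, against 154, 189.8 and 163 (2.26, adjusted p = 2.1e-11).

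Granule neuron progenitor genes did not move one way: 5 rose and 8 fell of 22. Atoh1 rose by 1.29 (adjusted p = 3.1e-09), Sox2, a stem and progenitor factor, by 1.91, and the Notch target Hes1 and its relative Hes6 by 1.43 and 1.09. Sox2 had 106, 182 and 122 in the resistant 160 mg/kg arrays, against 16.6, 30.1 and 26.1 in the 48 h arrays. The members that fell were Id3, Eomes, Id2, Barhl1, Nhlh1, Sox4, Nhlh2 and Zic1, with differences from -1.75 to -0.60, and are named after their values were seen.

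Genes of macrophages and of the lysosome formed the main group on the lower side. Of 29 macrophage and microglia markers 27 fell and 0 rose (median -2.20). Cd68, a lysosomal membrane protein of macrophages, had 204, 381 and 681 in the resistant 160 mg/kg arrays, 473, 448 and 499 in the resistant 40 mg/kg arrays, 3119.5, 2201 and 3895 in the 48 h arrays and 103, 141 and 140.2 in the vehicle arrays (-2.93, adjusted p = 4.7e-09). The resistant arrays lay between the vehicle and the 48 h arrays. Mpeg1, a pore-forming protein of macrophages, had 434, 658 and 1209 in the resistant 160 mg/kg arrays, against 3745, 3941 and 3991 in the 48 h arrays (-2.44), and Ms4a7 and Aif1 fell by 2.20 and 2.57. The summed signal of the list was 7068, 16104 and 25856 in resistant 160 mg/kg replicates 1 to 3, 20320 to 26612 in the resistant 40 mg/kg arrays, 53117 to 71707 in the 48 h arrays and 3528 to 6322 in the vehicle arrays. Replicate 3, highest here, was also the lowest of its group for mitosis genes.

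Lysosome genes fell in 29 of 30 cases with 0 higher (median -1.63). The protease Lgmn had 396, 760.1 and 885 in the resistant 160 mg/kg arrays, against 3292, 2856 and 4377 in the 48 h arrays (-2.39, adjusted p = 1.8e-08). Cathepsin Z, from Ctsz, the glucuronidase gene Gusb and the receptor gene Scarb2 fell by 1.89, 1.81 and 1.34. Lipid efflux and dead-cell clearance genes, a list that shares 5 genes with the macrophage list, gave 24 lower and 0 higher of 30 (median -1.82). Plin2, which coats lipid droplets, had 514, 745 and 1017, against 3743, 2825 and 3969 (-2.22, adjusted p = 1.9e-09), and Gpnmb, found in lipid-laden macrophages, had 57.8, 50.8 and 88.4, against 605, 439 and 686 (-2.86). The complement gene C1qc and the scavenger receptor gene Msr1 fell by 2.47 and 2.07.

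Interferon response genes gave 20 lower and 0 higher of 25 (median -1.22). Oas1a, an antiviral enzyme, had 45.8, 98.9 and 81.9 in the resistant 160 mg/kg arrays, against 380.5, 230.1 and 496 in the 48 h arrays (-2.06), and Bst2, Oasl2 and Xaf1 fell by 1.78, 1.79 and 1.15. Fibroblast and matrix genes gave 22 lower and 1 higher of 29 (median -1.49). Mmp2, a matrix protease, had 73.5, 147 and 362, against 727, 590.5 and 969 (-2.11, adjusted p = 1.7e-05), and Fap, an activated fibroblast marker, had 123, 179 and 295, against 762, 683 and 852 (-1.93). Pdgfra, the growth factor receptor of mesenchymal and glial precursor cells, and the collagen gene Col6a2 fell by 2.66 and 1.61. The member that rose, the collagen cross-linking gene Loxl1 (0.55, adjusted p = 0.034), is named after its value was seen, and its call was lost without resistant 160 mg/kg replicate 2 or 3 or sensitive 48 h replicate 3 or 4. Summed fibroblast signal was 11281, 26274 and 44608 in resistant 160 mg/kg replicates 1 to 3, and 55915 to 82855 in the 48 h arrays.

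Vessel, lymphoid and neutrophil markers were dimmer, and their counts leaned on single arrays. Endothelial genes gave 12 lower and 1 higher of 21 (median -0.81), but 6 lower with replicate as a block, 3 without resistant 160 mg/kg replicate 1 and 6 without sensitive 48 h replicate 4. Vwf, the von Willebrand clotting factor made by endothelium, had 32.2, 62 and 104 in the resistant 160 mg/kg arrays, against 227, 259.6 and 302 in the 48 h arrays (-1.85), and Sox17 and Ptprb fell by 1.82 and 0.98. Sox18, listed with them, went the other way, with 1091, 836 and 486, against 312, 211 and 306 (1.43, adjusted p = 2.1e-05). Lymphocyte and natural killer genes gave 6 lower and 0 higher of 14 (3 without resistant 160 mg/kg replicate 1), with Gzma at -2.30, Cd4 at -1.37, Klrd1 at -1.11 and Gzmb at -1.26. Neutrophil genes gave 5 lower and 0 higher of 13, with Csf3r at -1.80, Clec4d at -1.85, S100a8 at -1.42 and S100a9 at -1.20. That count was 3 without resistant 160 mg/kg replicate 1 or 3, or without sensitive 48 h replicate 4. Of 13 pericyte genes 3 fell, Notch3, Pdgfrb and Myh11, and none of these calls held without resistant 160 mg/kg replicate 1 (adjusted p = 0.078, 0.12 and 0.21).

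Markers of neighbouring host tissue rested on few arrays. Skeletal muscle genes gave 9 lower of 28, but 2 without sensitive 48 h replicate 3 and 16 without sensitive 48 h replicate 4. The count was 18 with replicate as a block and 5 without resistant 160 mg/kg replicate 1 or 2. Their summed signal was 2202 to 2998 in the resistant 160 mg/kg arrays and 2513 to 20855 in the 48 h arrays. The muscle oxygen carrier gene Mb had 20.4, 13.6 and 10.7, against 335, 807 and 30.9, and Tnnt1, Ryr1 and Neb followed with differences of -2.12, -2.04 and -1.35. Adipocyte genes gave 3 lower of 12 (Pparg -1.19, Pnpla2 -0.66 and Cidea -1.41), with 1 lower without sensitive 48 h replicate 3 or without resistant 160 mg/kg replicate 1, 5 without resistant 160 mg/kg replicate 3 and 6 without sensitive 48 h replicate 1. Their summed signal was 2069, 1266 and 11123 in resistant 160 mg/kg replicates 1 to 3 and 3398 to 9189 in the 48 h arrays. Skin genes gave 1 higher of 9, the desmosome gene Dsc3, whose adjusted p of 0.027 was 0.25 without resistant 160 mg/kg replicate 1. The part of muscle, fat and skin in the other results was not tested.

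Glial genes split. S100b, a calcium-binding protein of glia, had 2325, 903 and 598 in the resistant 160 mg/kg arrays, against 36.2, 40 and 36.7 in the 48 h arrays (4.36, adjusted p = 7.3e-09), whereas Glul, Slc1a2 and Vim fell by 1.09, 1.22 and 0.96. In all 1 of 14 astrocyte and glia genes rose and 3 fell. Of 10 oligodendrocyte and Schwann cell genes 2 rose and 2 fell. The lineage factors Olig1 and Olig2 rose, Olig1 with 829.8, 364 and 243, against 17.1, 46.1 and 30.9 (3.25, adjusted p = 8.5e-09), and Olig2 by 1.77. The myelin genes Pmp22 and Cnp fell by 1.45 and 0.92. Of 5 erythroid genes 3 rose: Alas2, which makes haem in red cell precursors, with 89.3, 419 and 629, against 3.7, 8.4 and 36.8 (3.39, adjusted p = 2.4e-05), then Tfrc (0.64) and Slc4a1 (0.90, adjusted p = 0.25 without resistant 160 mg/kg replicate 3).

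**Figure D3:**
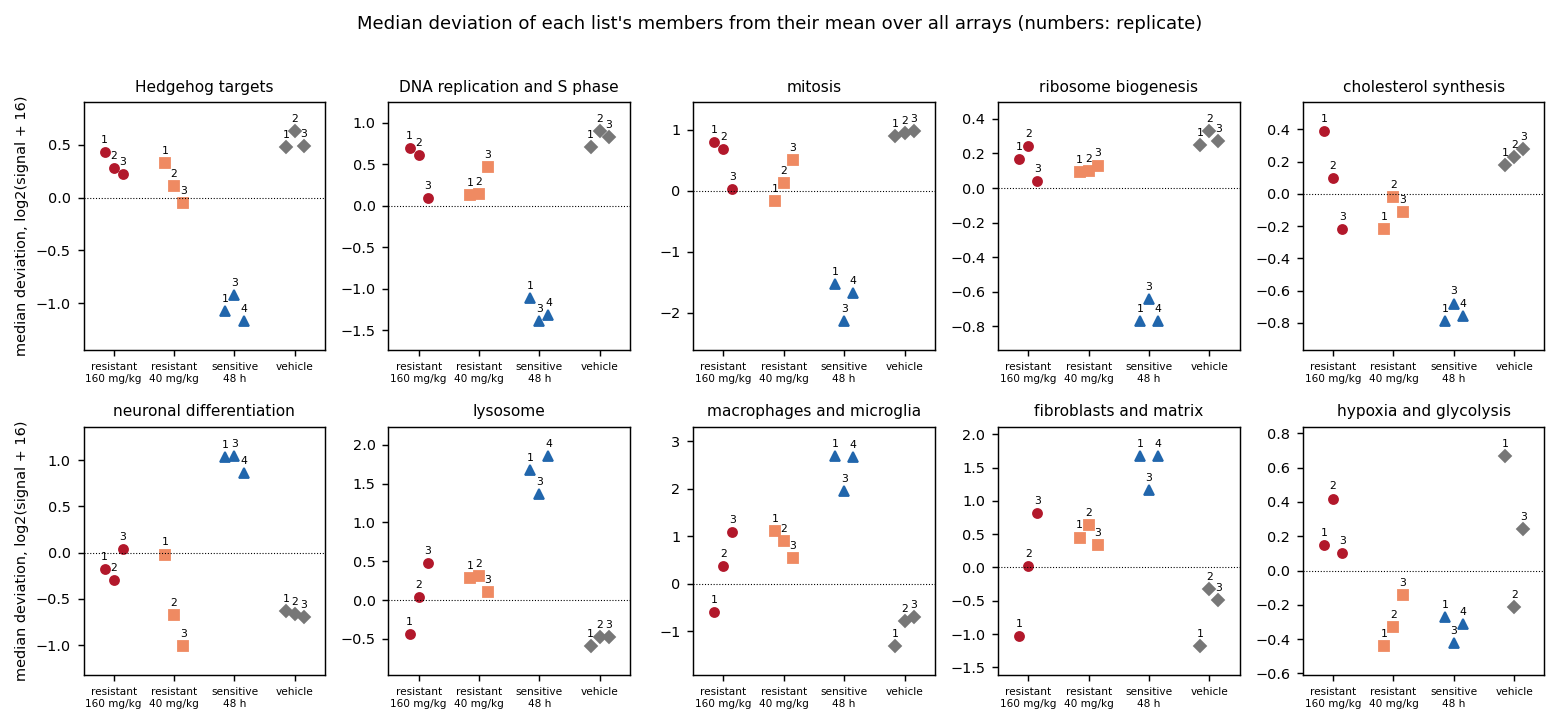
Median deviation of each list's members from their own mean over all 23 arrays, in log2(signal + 16), for each array of the resistant 160 mg/kg, resistant 40 mg/kg, sensitive 48 h and vehicle groups, with replicate numbers beside the points. Mitosis genes lie at 0.03 to 0.79 in the resistant 160 mg/kg arrays and at -2.14 to -1.53 in the 48 h arrays, and macrophage genes at -0.60 to 1.10 and 1.95 to 2.70.

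The widest rises included neuronal and signalling genes, among them Wif1 and Wnt4 of the Wnt list. Nptx1, a secreted synaptic pentraxin, had 3758, 3892 and 2666 in the resistant 160 mg/kg arrays, 3095, 2923 and 2499.9 in the resistant 40 mg/kg arrays, 154, 108 and 84 in the 48 h arrays and 5053, 4786 and 4582 in the vehicle arrays, a difference of 4.73 (adjusted p = 3.6e-16). It was the widest rise of all called genes whose arrays did not overlap. Tbata, known from thymus, brain and testis, had 2197, 2045 and 1327 in the resistant 160 mg/kg arrays, against 92.8, 122 and 111 in the 48 h arrays (3.88, shared probes). Padi2, which converts protein arginine to citrulline, had 1903, 858 and 364, against 56.5, 17.5 and 51 (3.98). The 3 resistant arrays spanned a wide range for Padi2 and for Slc6a2, the noradrenaline transporter, which had 86, 404 and 659, against 6.7, 3.5 and 4.1. Slc6a2 was not above the 40th percentile of any 48 h array and was at least 10.3-fold higher. By the same measure the vesicle protein gene Syt13 was at least 14.5-fold higher (log2 difference 3.83), the secreted Wnt inhibitor gene Wif1 at least 10.2-fold (3.76) and Tex36 at least 9.57-fold (3.76). The adhesion gene Kirrel3 rose by 3.76 and the ligand gene Wnt4 by 3.70, with 922, 919.6 and 469.9, against 29.6, 76 and 30.7. Ccdc138 was called (4.08, adjusted p = 0.00029) although resistant 160 mg/kg replicate 2 lay near the 48 h level, with 2754, 42.5 and 2508, against 30.9, 30.2 and 23.2.

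The widest falls, beside Slc17a6, Stmn2 and Chgb, included neuronal receptor and matrix genes. A930009L07Rik, a transcript named by its clone, had 2.5, 15 and 10.4 in the resistant 160 mg/kg arrays, against 674, 856 and 728 in the 48 h arrays, and was at least 31.2-fold lower. The galanin receptor gene Galr1 was at least 13.4-fold lower, with 1.5, 19.2 and 12.3, against 325, 388 and 259.8. Chrnb4, a nicotinic receptor subunit, fell by 3.46. Among secreted and matrix proteins, Mia fell by 3.73 and the collagenase gene Mmp13 by 3.63. The proteoglycan gene Lum had 40.6, 182 and 258, against 1652, 1427 and 1989 (-3.54). Tspan4, a tetraspanin, Itm2a and Pdzrn3 fell by 3.65, 3.67 and 3.52.

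**Figure D4:**
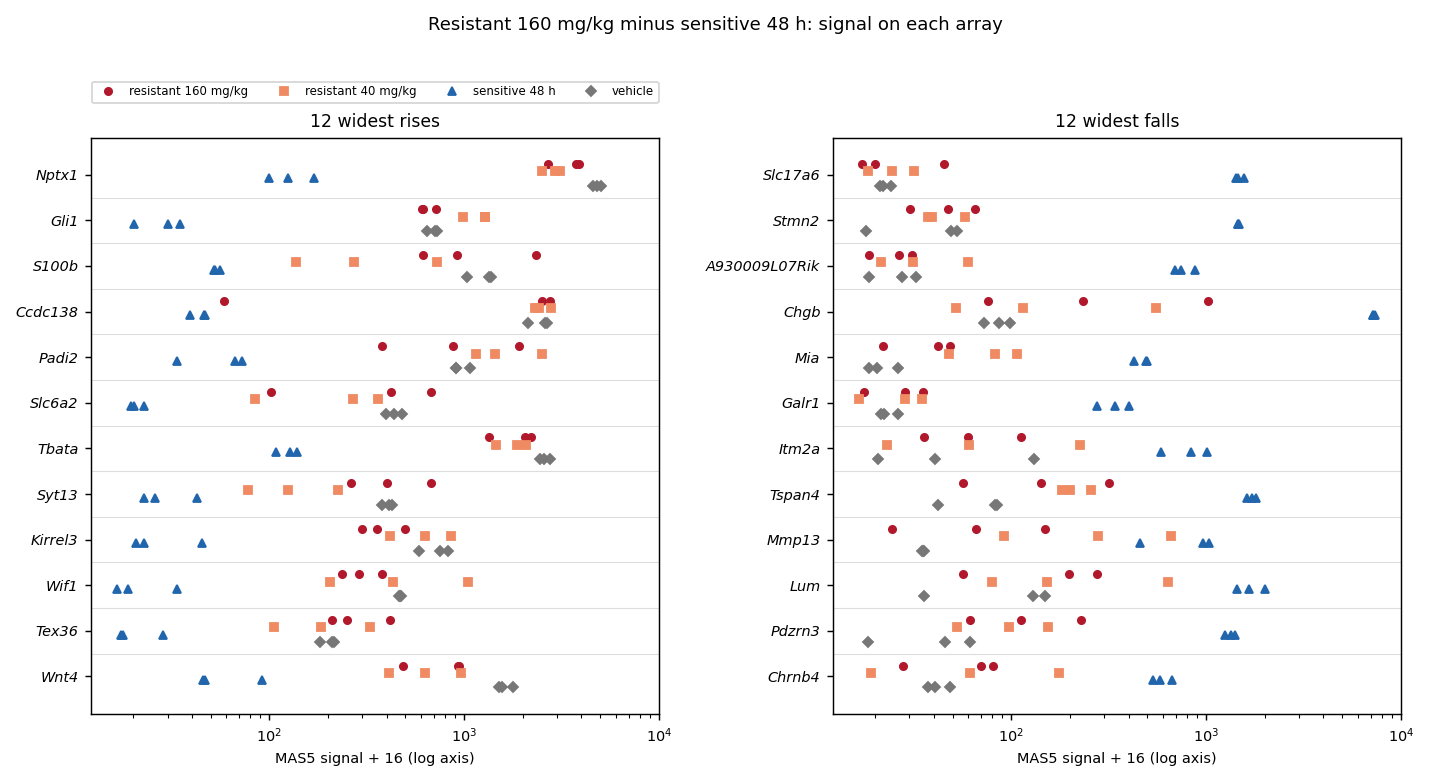
MAS5 signal plus 16 on a log axis for the 12 widest rises and 12 widest falls among called genes whose resistant 160 mg/kg and 48 h arrays do not overlap, with 3 arrays for each of the resistant 160 mg/kg, resistant 40 mg/kg, sensitive 48 h and vehicle groups. The 48 h arrays stand apart in most of the 24 genes, and Ccdc138 has 1 resistant 160 mg/kg array near them.

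Growth signalling genes were mixed. Of 40 PI3K and insulin-like growth factor genes 7 rose and 10 fell (median -0.07), close to the background. Irs1, an adaptor of the insulin and IGF receptors, had 4916, 5256 and 4332 in the resistant 160 mg/kg arrays, against 1069.6, 1245 and 1229.7 in the 48 h arrays (2.02, adjusted p = 7.9e-13), and the receptor gene Igf1r had 579, 805 and 834, against 421, 429 and 456 (0.73). The ligand gene Igf1, also made by macrophages, had 113, 221 and 495, against 1569, 1083 and 1500.2 (-2.47, adjusted p = 1.2e-06). Its signal rose from resistant 160 mg/kg replicate 1 to 3, as did the summed macrophage, fibroblast, lysosome and endothelial signals. Which cells carried the Igf1 signal was not tested. The regulatory subunit genes Pik3r1 and Pik3r3 fell by 1.00 and 0.70, and the kinase gene Sgk1 by 1.78. Of 28 growth factor receptor and MAPK feedback genes 8 rose and 3 fell. The feedback inhibitor genes Dusp6 and Spred1 rose by 0.96 and 0.66, and Ralb, a Ras-like GTPase gene, fell by 1.13. Of 26 immediate early genes 4 rose (7 without resistant 160 mg/kg replicate 1) and 7 fell, with Fosl2 and Egr2 higher by 1.02 and 1.40. Nr4a3 and Dusp1 fell by 2.15 and 1.01, and Nr4a3, not above the 40th percentile of any resistant 160 mg/kg array, was at least 3.01-fold lower.

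Developmental pathways changed in both directions, with all genes at 17.5% higher and 20.5% lower for comparison. Of 24 Notch genes 6 rose and 4 fell, among them the ligand gene Dll3, with 1156, 623 and 477 in the resistant 160 mg/kg arrays, against 65.3, 112 and 50.4 in the 48 h arrays (3.02), and Jag1 (0.86). Of 27 Wnt genes 6 rose and 3 fell, and the receptor gene Fzd1 had 2038, 1927 and 1309, against 365, 398 and 366 (2.15, adjusted p = 2.2e-11), with the feedback gene Nkd1 at 1.00. The count of 3 was 0 without sensitive 48 h replicate 4 and 1 without sensitive 48 h replicate 1 or resistant 160 mg/kg replicate 1 or 2. Of 32 activin, BMP and TGF-beta genes 8 rose and 4 fell, with the signal transducers Smad3 and Smad4 at 1.46 and 0.93 and the receptor gene Bmpr1a at 0.92. The count of 4 was 2 without resistant 160 mg/kg replicate 1 or sensitive 48 h replicate 4.

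Drug transporters were not higher as a group than in the 48 h tumours. Of 16 efflux and drug metabolism genes 1 rose and 6 fell (median -0.53). The 48 h tumours themselves lay above vehicle for this list (median 0.82, against 0.06 over all genes). Against vehicle, 0 of the 16 were called in the resistant 160 mg/kg tumours (median 0.34), with up to 5 higher under an alternative. In 6 of the 16 every resistant 160 mg/kg array lay above every vehicle array, against 9.05% of all genes. In 1 every array lay below, against 9.45%. Abcg2, a broad efflux pump, had 43, 89.4 and 214 in the resistant 160 mg/kg arrays, against 292, 316 and 371 in the 48 h arrays (-1.60, adjusted p = 5e-04). The P-glycoprotein genes were dim: Abcb1a had 19.9, 22.1 and 38.9, against 56.7, 48 and 54.5 (-0.71, adjusted p = 0.043), and Abcb1b had 17.4, 31.2 and 20.6, against 53.2, 37.5 and 22.1 (-0.43, adjusted p = 0.24). The Abcb1a call was lost under 10 of the 14 alternatives, including the removal of resistant 160 mg/kg replicate 1 or 2 or of any 48 h array. Abcc3 and Cyp1b1 fell by 2.22 and 1.69, and Abcc1 rose by 0.56. Of 28 p53 and apoptosis genes 3 rose and 9 fell, with Pmaip1 and Eda2r higher by 1.17 and 1.06 while Ccng1 and Bmf fell by 0.86 and 1.24.

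The resistant 160 mg/kg tumours were next set against the resistant 40 mg/kg tumours, which differ from them in the labelled dose. Of 35069 probe sets 747 were called (2.13%), 474 higher (1.35%) and 273 lower (0.778%). Of 14980 genes 419 were called (2.8%), 251 higher (1.68%) and 168 lower (1.12%), and the arrays did not overlap in 5.97% of genes on the higher and 6.32% on the lower side. Arrays of the 2 resistant groups correlated at 0.942 to 0.956. The same 48 h arrays enter both resistant comparisons, so their values are given side by side: against the 48 h arrays 10773 probe sets were called for 160 mg/kg and 10504 (30%) for 40 mg/kg, 5111 of the 10504 higher (14.6%) and 5393 lower (15.4%), and 5542 genes (37%), of which 2659 were higher (17.8%) and 2883 lower (19.2%). The count of 747 was 19 where these 2 groups alone entered the fit and 1186 without resistant 40 mg/kg replicate 1.

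The genes named here and in the next paragraph were chosen as the widest called differences between the resistant groups without overlap. Their separation was therefore set by that choice. Cyclin D3 had 292, 277 and 238 in the resistant 160 mg/kg arrays, 1158, 1250.1 and 2087 in the resistant 40 mg/kg arrays, 236, 227 and 205 in the 48 h arrays and 372, 424 and 432 in the vehicle arrays (160 minus 40 mg/kg -2.36, adjusted p = 1.5e-08). Thus its high signal was measured in the 40 mg/kg group. Dcpp3, named for demilune cells of salivary gland, had 454, 324 and 434 in the resistant 160 mg/kg arrays, 3169.8, 6011 and 3326 in the resistant 40 mg/kg arrays and 57.4, 26.6 and 46.3 in the 48 h arrays (-3.27, shared probes). The arginine deiminase gene Padi4 had 54.6, 30.5 and 66.4, against 427, 1031 and 260.1 at 40 mg/kg (-2.96). Sptssb, a subunit of the first enzyme of sphingolipid synthesis, had 1.5, 2.3 and 3.2, against 119, 206 and 245 (-3.44). It was not above the 40th percentile of any resistant 160 mg/kg array and was at least 7.58-fold lower. The calcium channel gene Cacna1s and the autophagy gene Eva1a differed by -3.04 and -2.38.

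Rises over the resistant 40 mg/kg tumours were led by Shisal2b, with 975, 700.3 and 725 in the resistant 160 mg/kg arrays, 85.2, 68.4 and 20.3 in the resistant 40 mg/kg arrays, 153, 143 and 176 in the 48 h arrays and 368, 404 and 540.1 in the vehicle arrays (3.58, adjusted p = 2.5e-08). Spon2, a secreted matrix protein, had 261, 331 and 338, against 73.8, 33.9 and 23.2 at 40 mg/kg (2.53). The guidance molecule gene Sema3e had 517, 501 and 406, against 84.7, 111 and 2.7 (2.98), and the neural progenitor factor Sox1 had 1203, 554 and 494, against 155, 385 and 1.3 (2.74, adjusted p = 0.015, and 0.074 without resistant 160 mg/kg replicate 1). The resistant 40 mg/kg arrays varied widely for Sox1. Wipf3, an actin regulator, and Prmt8, a brain arginine methyltransferase, differed by 3.04 and 2.29.

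**Figure D5:**
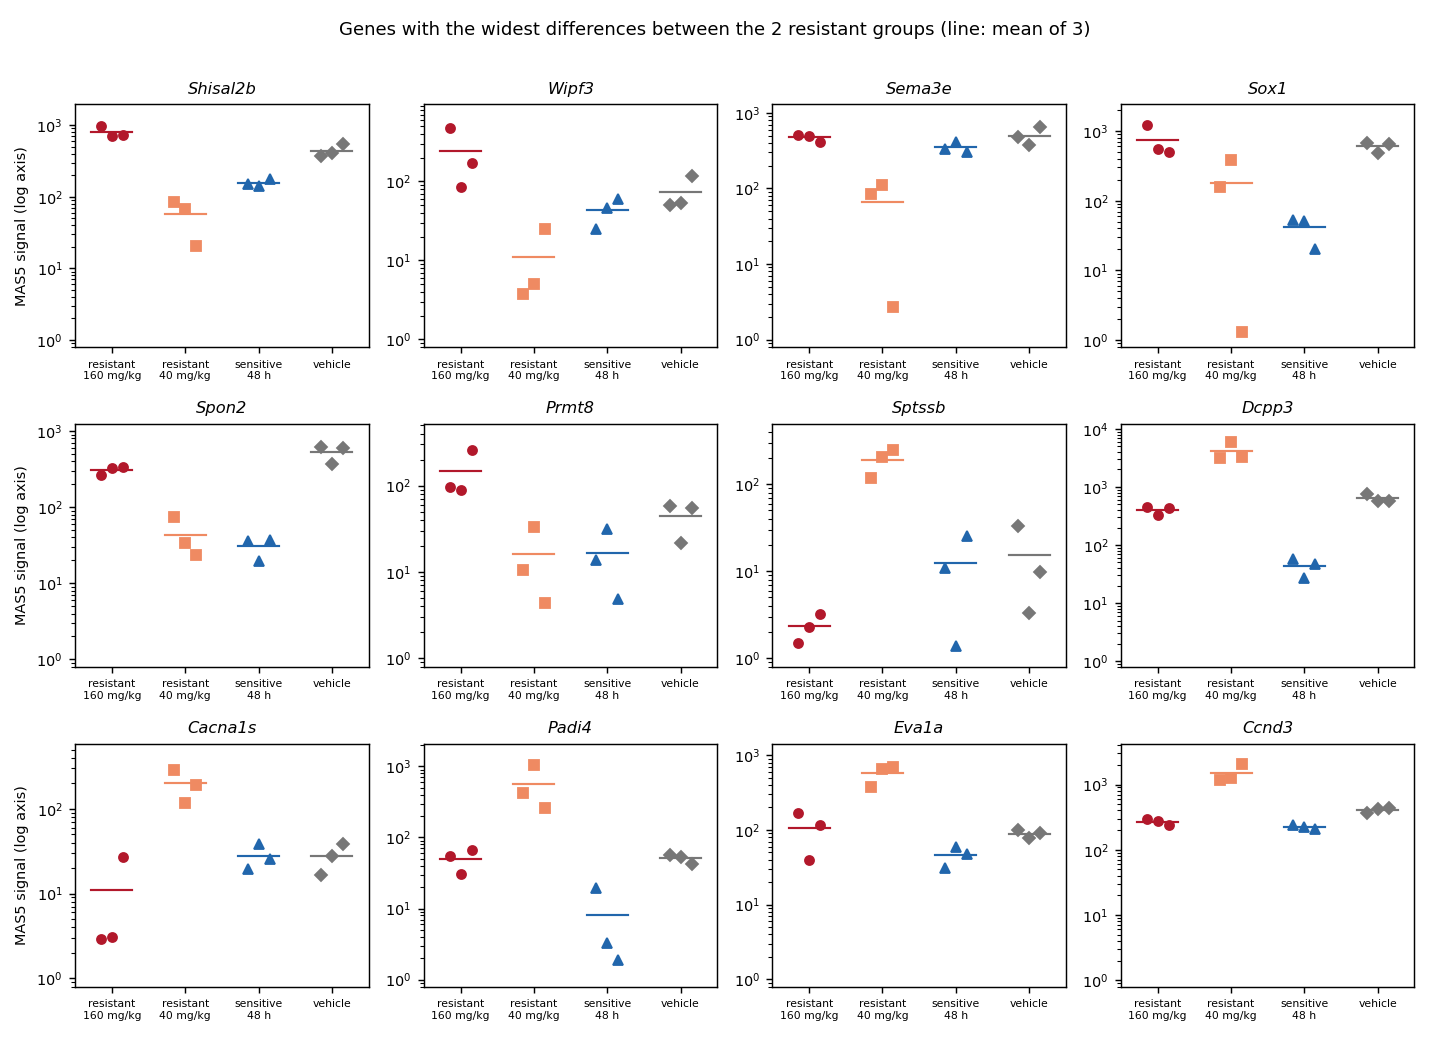
MAS5 signal on a log axis for the 6 widest rises and 6 widest falls of the resistant 160 mg/kg over the resistant 40 mg/kg tumours, on each array of these 2 groups and of the sensitive 48 h and vehicle groups, with a line at the mean of 3. Ccnd3 and Dcpp3 are high in the 40 mg/kg group, and Sema3e and Shisal2b are low there.

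Among the panel and lists, Sfrp1 was higher at 160 than at 40 mg/kg (1.53, adjusted p = 0.0019), with 492, 969.6 and 1359.6, against 496, 266 and 181 at 40 mg/kg, and the lowest 160 mg/kg array lay just under the highest 40 mg/kg array. Hhip was higher by 1.34 (adjusted p = 0.042) and lost its call under 9 of 15 alternatives, the removal of resistant 160 mg/kg replicate 1 or 2 or of resistant 40 mg/kg replicate 1 or 3 among them. Gli1 did not pass (-0.86, adjusted p = 0.21), although all 160 mg/kg arrays lay below all 40 mg/kg arrays, as in 6.32% of genes. The other Gli genes and Ptch1 did not pass either: Gli2 0.12, Gli3 -0.26 and Ptch1 -0.16. Glycolysis and hypoxia genes gave 7 higher and 0 lower of 29, against 1.68% of all genes. The 7, named after their values were seen, were Aldoa, Egln3, Ldha, Ndrg1, Pkm, Slc2a3 and Tpi1, at 0.56 to 1.80. That count was 3 without resistant 160 mg/kg replicate 2 and 4 without resistant 40 mg/kg replicate 1 or 2. Against vehicle 0 of these 29 genes were called (median -0.01). Their summed signal was 22337 to 27760 in the resistant 160 mg/kg arrays, 14950 to 17549 in the resistant 40 mg/kg arrays and 19063 to 33677 in the vehicle arrays. Mitosis genes gave 2 higher of 50 and S phase genes 0 of 45, and these counts were 18 and 11 without resistant 160 mg/kg replicate 3 and 7 and 2 without resistant 40 mg/kg replicate 3. The mitosis count was 0 without any other array of the 2 groups. Macrophage genes gave 1 lower of 29, 10 without resistant 160 mg/kg replicate 3, and 0 without resistant 160 mg/kg replicate 1 or any resistant 40 mg/kg array.

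Against vehicle tumours few genes were called in the resistant 160 mg/kg tumours. Of 35069 probe sets 355 were called (1.01%), 282 higher (0.804%) and 73 lower (0.208%). Of 14980 genes 216 were called (1.44%), 178 higher (1.19%) and 38 lower (0.254%), and the arrays did not overlap in 9.05% of genes on the higher and 9.45% on the lower side. The resistant 160 mg/kg and vehicle arrays correlated at 0.936 to 0.967. The count of probe sets was 8 where these 2 groups alone entered the fit, 45 without resistant 160 mg/kg replicate 3, 950 without replicate 1 of that group, and 86, 170 and 178 without vehicle replicates 1, 2 and 3. None of the 19 Hedgehog targets was called in this comparison (median -0.24), and the Gli1 signals of the groups overlapped. Without resistant 160 mg/kg replicate 1, 2 targets were lower. Of 45 S phase genes 0 were called and of 50 mitosis genes 1 was lower, with medians of -0.30 and -0.45, and 4 of each were lower without that array. The mitosis call was lost without resistant 160 mg/kg replicate 3 or any vehicle array. Every resistant 160 mg/kg array nevertheless lay below every vehicle array in 32 of 50 mitosis genes and 18 of 45 S phase genes. The same held in 5 of 19 Hedgehog targets. That share was 9.45% over all genes, and the reverse held in 0 genes of each of these lists.

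Macrophage markers were higher than in vehicle tumours in part. Of 29 macrophage markers 14 were higher and 0 lower (median 1.19), and of 30 lipid efflux and clearance genes 13 were higher and 0 lower (median 1.07). Those counts were 3 and 1 without resistant 160 mg/kg replicate 3, 23 and 21 without resistant 160 mg/kg replicate 1, and 3 and 2 without vehicle replicate 1. The macrophage count was 9 without vehicle replicate 2. The macrophage and the lipid efflux lists share 5 genes, and C1qb, C1qc, Msr1 and Tyrobp were among the higher members of both. Of 30 lysosome genes 6 were higher than in vehicle and 0 lower (median 0.49). Of 43 neuronal differentiation genes 5 were higher and 0 lower (median 0.43), against 1.19% of all genes higher. These 2 counts ran from 0 to 16 and from 0 to 9 over the alternatives. Every resistant 160 mg/kg array lay above every vehicle array in 10 lysosome genes and 17 neuronal genes, against 9.05% of all genes. The reverse held in 0 and 2 of them, against 9.45%. Cd68 differed by 1.46 (adjusted p = 0.0057) and Igf1 by 1.68 (adjusted p = 0.0083). The Igf1 call was lost without resistant 160 mg/kg replicate 3 (adjusted p = 0.064) or vehicle replicate 1 (0.055). The 10 genes named next were chosen after their values were seen, as the widest differences with no overlap. Alas2 had 89.3, 419 and 629 in the resistant 160 mg/kg arrays, 385, 163 and 159 in the resistant 40 mg/kg arrays, 3.7, 8.4 and 36.8 in the 48 h arrays and 13.4, 4.2 and 34.3 in the vehicle arrays (3.32, adjusted p = 0.0035). Slc40a1, the iron exporter ferroportin, had 503, 912 and 2012, against 176, 97.4 and 112 in vehicle arrays (2.82, adjusted p = 0.00021), and Hmox1, which breaks down haem, had 272, 835 and 1609.5, against 126, 78.2 and 82.3 (2.75). Without resistant 160 mg/kg replicate 3 the adjusted p for Hmox1 was 0.053. The lipid carrier gene Fabp4, also on the adipocyte list, had 822, 575 and 4998, against 50.4, 218 and 185 (3.21), with replicate 3 far above the other two. Summed adipocyte signal was 2069, 1266 and 11123 in resistant 160 mg/kg replicates 1 to 3 and 689 to 924 in the vehicle arrays. The chemokine gene Ccl8 differed by 2.61. Both calls were lost without resistant 160 mg/kg replicate 3 (adjusted p = 0.14 for Fabp4 and 0.17 for Ccl8), without vehicle replicate 1 (0.12 and 0.17) and without a trended prior (0.061 and 0.081), and Ccl8 also without resistant 160 mg/kg replicate 2 (0.068). Lower than in vehicle were Fibp (-1.69), Fam167a (-1.47), Spsb4 (-1.44), Sbspon (-1.42) and A630023P12Rik (-1.32). Except for Fibp, these calls were lost without resistant 160 mg/kg replicate 3 or vehicle replicate 1, and that of A630023P12Rik also without resistant 160 mg/kg replicate 2 or vehicle replicate 2 or 3. With these 2 groups alone in the fit, none of the 10 genes, nor Cd68 or Igf1, passed.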

How the data were processed

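Affymetrix mouse arrays of 23 tumours gave 45101 probe sets. The deposited values are MAS5 signal intensities on a linear scale, per the submitters' processing notes. They were scaled by the authors so that the mean with 2% trimmed at each end is 150 on every array. The MAS5 version is not given in the sources used here, and no detection calls were used.

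The members and gene lists were chosen with earlier results of these data known. Groups follow the description label, which disagrees with the source label on 6 short-term arrays of other groups. Of the 45037 probe sets left without 64 controls, 35069 above the 40th percentile of an array on at least 2 arrays were tested. Of all probe sets 34958 carried 1 gene symbol in the platform annotation, 932 several and 9211 none. limma (3.58.1, R 4.3.3) fitted a mean for each of 8 groups to log2(signal + 16) over 23 arrays, with a trended prior, two-sided tests and Benjamini-Hochberg adjustment within each comparison. Named genes were a fixed panel, the 12 widest rises and falls without overlap, 4 called members of each of 35 lists with the smallest p, and the 6 widest rises and falls between resistant groups. Probe sets of Smo, Tbata, Dcpp3, Arrb2, Hes6, Mcm5, Mcm7, Cdc20, Ralb, Bmf, Nop56, Polr1c, Odc1, Atp5a1, Aif1, Clec4d, S100a8, Sox17, Notch3, Vim, Cnp, Slc4a1 and Sbspon share probes with other transcripts, so their values are uncertain. "At least" folds set the brighter group's mean against the 40th percentile of the dim arrays or the dim value where higher. The number of arrays limits the precision. Alternatives were other offsets, filters, quantile normalization, an untrended prior, the compared groups alone, blocks for replicate number and title run, and each replicate left out.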

Additional observations from a re-analysis of the deposited data

Results flagged for a closer look

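Of the named genes, 28 differed between the resistant groups in their change relative to the sensitive 48 h tumours, which is the 160 minus 40 mg/kg difference itself, tested by limma at adjusted p 0.05. Of these 18 were higher and 10 lower at 160 mg/kg. Both changes passed the test in opposite directions for 3 genes: Shisal2b (2.22 at 160 mg/kg and -1.35 at 40 mg/kg, a difference of 3.58), Wipf3 (1.88 and -1.16, difference 3.04) and Sox18 (1.43 and -0.61, difference 2.05). The 6 widest rises and 6 widest falls between the resistant groups were named by this same difference. Their place among the 28, that of Shisal2b and Wipf3 included, was therefore set in advance. Of all 14980 genes tested, 2.8% were called in that comparison. Among the other higher genes the differences were 2.98 for Sema3e, 2.74 for Sox1, 2.53 for Spon2, 2.29 for Prmt8, 1.87 for S100b, 1.68 for Syt13, 1.62 for Slc1a2, 1.53 for Sfrp1 and 1.34 for Hhip. Smaller ones were 0.84 for Tfrc, 0.75 for Jag1, 0.71 for Ldha, 0.62 for Fosl2, 0.57 for Grin2c and 0.56 for Pkm. Among the lower genes they were -0.64 for Hes6, -0.70 for Dusp6, -0.81 for Ms4a7, -1.30 for Fst, -2.36 for Ccnd3, -2.38 for Eva1a, -2.96 for Padi4, -3.04 for Cacna1s, -3.27 for Dcpp3 and -3.44 for Sptssb. Single arrays decided 9 of these calls. Leaving out 1 array lost Jag1 (resistant 160 mg/kg replicate 1 or 3, resistant 40 mg/kg replicate 1 or 2), Fosl2 (resistant 160 mg/kg replicate 2 or 3, resistant 40 mg/kg replicate 2 or 3) and Grin2c (resistant 160 mg/kg replicate 1 or 2, resistant 40 mg/kg replicate 2). It lost Ldha (resistant 160 mg/kg replicate 1 or 2, resistant 40 mg/kg replicate 1 or 2), Pkm (resistant 160 mg/kg replicate 2, resistant 40 mg/kg replicate 1 or 3) and Hhip (resistant 160 mg/kg replicate 1 or 2, resistant 40 mg/kg replicate 1 or 3). It also lost Ms4a7 (resistant 160 mg/kg replicate 1 or any resistant 40 mg/kg array), S100b (resistant 160 mg/kg replicate 1, resistant 40 mg/kg replicate 3) and Sox1 (resistant 160 mg/kg replicate 1). With the 2 resistant groups alone in the fit, 6 of the 28 passed: Shisal2b, Spon2, Ccnd3, Cacna1s, Dcpp3 and Sptssb. Groups of 3 arrays were not screened for single outlying arrays.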

How the results depend on the processing

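No named value changed sign while called. The 10773 probe sets called against the sensitive 48 h tumours became 8584 with replicate number as a block and 11058 with an offset of 64, the widest departures among the alternatives, and 8725 to 10847 with 1 replicate left out. Against the resistant 40 mg/kg tumours the 747 became 491 without a trended prior, 19 with the 2 groups alone and 532 to 1186 with 1 replicate left out. Against vehicle the 355 became 123, 8 and 45 to 950. In those 2-group fits fewer arrays estimate the spread. The cause of these and the other shifts was not tested. Replicate numbers did not pair the arrays (correlations of -0.03 and -0.11 for the numbers that the resistant 160 mg/kg and 48 h groups share), and the replicate block gave 8584, 690 and 265 calls in the 3 comparisons. Of 170 named genes called against the 48 h tumours, 151 kept the call under every alternative. The 19 that lost it at least once were Abcb1a, Cidea, Dsc3, Gli3, Gzmb, Hmox1, Igf2, Klrd1, Myh11, Neb, Notch3, Pdgfrb, Pnpla2, Pparg, Ryr1, S100a8, S100a9, Slc4a1 and Sufu. Dim probe sets near the 40th percentile carry little order, since no detection calls were used.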
